A study of Mus musculus with 2 samples.

Results

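The 6 genes Mir23a, Mir27a, Mir24-2, Mir23b, Mir27b and Mir24-1 form a pair of paralogous microRNA clusters. They were taken by name and position, 6 of the 2202 microRNA (miRNA) genes in the tables, by a rule that uses no measured value. Small RNA of the adrenal gland was sequenced from adult male mice of the strain given as 5xFAD/CAST, at 8 to 10 months of age, in a size range below 30 nucleotides. In background, 5xFAD is a transgenic mouse model of Alzheimer's disease, and CAST is a wild-derived strain. Whether these animals carried a transgene is not stated. There were 2 libraries of 1 group, replicates 1 and 2, whose tissue records differ and whose donor record is the same. Nothing says that they came from separate animals, so the spread between them may be partly technical. With 1 group there was no contrast, and the data give the level of each gene, its spread and the balance between the clusters.

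A miRNA is cut from a hairpin precursor and guides silencing of messenger RNAs that pair with its seed, bases 2 to 8 of the mature strand. Hairpins of 1 cluster are released from a shared primary transcript, so their genes are transcribed together while each mature miRNA can be processed and lost at its own rate. The mir-23, mir-27 and mir-24 clusters are known for high levels in endothelial cells, the cells that line vessels, and the adrenal is a densely vascular gland. In other tissues miR-23 is known to repress glutaminase in human cells, miR-27 to restrain fat cell formation through Pparg, and miR-24 to act on cell cycle genes in human cells.

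Mature arms are printed to show where the mir-27 and mir-24 genes differ and how like the miR-23 and miR-27 seeds are, from the RefSeq table of build GRCm38 (mm10), 5′ to 3′ with the seed in capitals. The 3p arms (miR-23a-3p, miR-23b-3p, miR-27a-3p, miR-27b-3p and miR-24-3p) are the strands for which the families are known. The 5p arms of the mir-24 genes are where those genes can be told apart. The RefSeq table used here held no miR-23b-3p, so that arm was compared only as part of the hairpin of Mir23b.
miR-23a-3p (Mir23a): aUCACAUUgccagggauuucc
miR-27a-3p (Mir27a): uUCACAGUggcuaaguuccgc
miR-27b-3p (Mir27b): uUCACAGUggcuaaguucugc
miR-24-3p (Mir24-2 and Mir24-1): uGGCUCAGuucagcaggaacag
miR-24-2-5p (Mir24-2): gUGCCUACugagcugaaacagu
miR-24-1-5p (Mir24-1): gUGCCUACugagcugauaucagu

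With positions counted from 1 at the 5′ end, miR-27a-3p and miR-27b-3p differ by C19U alone, outside the seed. The seeds of miR-23a-3p and miR-27a-3p differ by U7G, so these cluster mates have like but distinct seeds. The 3p arm of Mir24-2 and that of Mir24-1 are the same 22 bases. The 5p arms of the mir-24 genes share their first 16 bases and then part. Apart from members, 0 other genes of the RefSeq table carried the miR-23 or the miR-27 seed. The miR-24 seed was carried by 4 others, Mir5124b, Mir6369, Mir6410 and Mir6413, each listed at 0 reads in both libraries.

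The longest stretch that a pair of hairpins has in common is shown next for the mir-27 and mir-24 genes, because a read lying inside it matches both genes.
Mir27a and Mir27b: uguUCACAGUggcuaaguuc
Mir24-2 and Mir24-1: cacuGGCUCAGuucagcaggaacaggag

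The stretches are 20 bases for the mir-27 genes and 28 for the mir-24 genes, with the seed again in capitals, and that of the mir-23 genes is 20 bases too. They lie at chr8:84208725-84208744 and chr13:63300758-63300777 for the mir-27 genes and at chr8:84208872-84208899 and chr13:63301248-63301275 for the mir-24 genes, all on the plus strand of mm10. In the mir-23 and mir-27 genes a read of 21 bases or more matched 1 annotated hairpin at most when every base was required to match, while the shared stretch of the mir-24 genes takes in all of miR-24-3p. Windows of 15 to 22 bases were searched in the 2202 annotated hairpins on either strand. Of the windows of 18 bases in the mature arm, 1 of 4 in miR-27a-3p and 1 of 4 in miR-27b-3p lay in another hairpin, against 5 of 5 in miR-24-3p and 0 in either mir-24 5p arm. Every window of miR-24-3p, of each length, was shared. The layout of the tables, with a separate line for multimapping reads, assigns such reads to no gene, so the counts of Mir24-1 and Mir24-2 are lower limits that leave out reads lying wholly within miR-24-3p. A genome was not used here, so copies outside annotated hairpins were not searched.

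**Figure D1:**
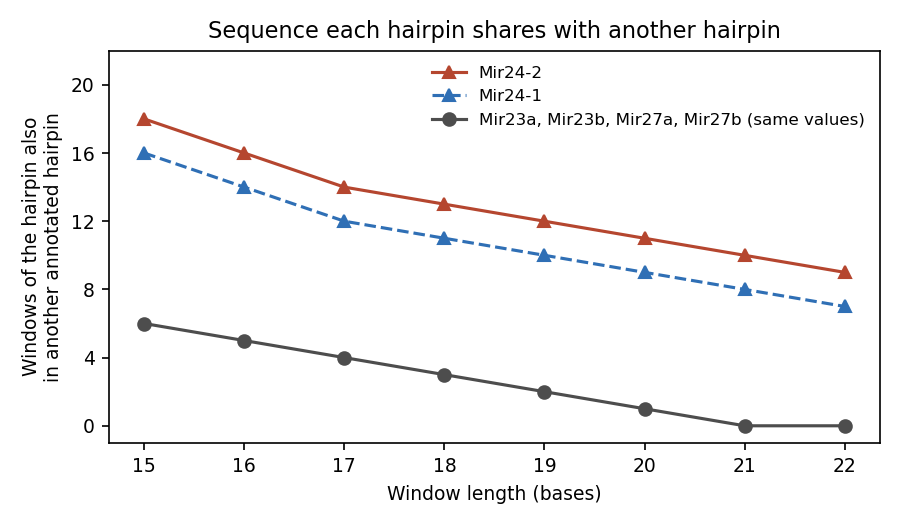
Number of windows of each hairpin (y axis) that also occur in another annotated hairpin at a different locus, for windows of 15 to 22 bases (x axis). The mir-23 and mir-27 genes coincide and reach 0 at 21 bases, whereas Mir24-2 and Mir24-1 still share 9 and 7 windows of 22 bases.

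The clusters keep the order mir-23, mir-27, mir-24 on the plus strand but differ in spacing. The 23a cluster spans 404 bases on chromosome 8, with Mir23a (ENSMUSG00000065611.1) at 84208518 to 84208592, Mir27a (ENSMUSG00000065444.1) at 84208672 to 84208758 and Mir24-2 (ENSMUSG00000065541.1) at 84208815 to 84208921. Mir23a and Mir27a overlap no other annotated gene, and Mir24-2 overlaps an exon of the long noncoding RNA Gm26532 by 2 bases. The 23b cluster spans 792 bases on chromosome 13, with Mir23b (ENSMUSG00000065599.2) at 63300484 to 63300557, Mir27b (ENSMUSG00000065475.2) at 63300712 to 63300784 and Mir24-1 (ENSMUSG00000105904.1) at 63301208 to 63301275. It lies within the protein-coding gene 2010111I01Rik (Aopep in RefSeq, an aminopeptidase), Mir23b in an intron and Mir27b and Mir24-1 over exons of some of its annotated transcripts. Introns of Fancc, a DNA repair gene, cover the same bases on the minus strand. Each mir-24 gene is also overlapped on the minus strand by another miRNA gene, Mir24-2 by Mir3074-2 and Mir24-1 by Mir3074-1.

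**Figure D2:**
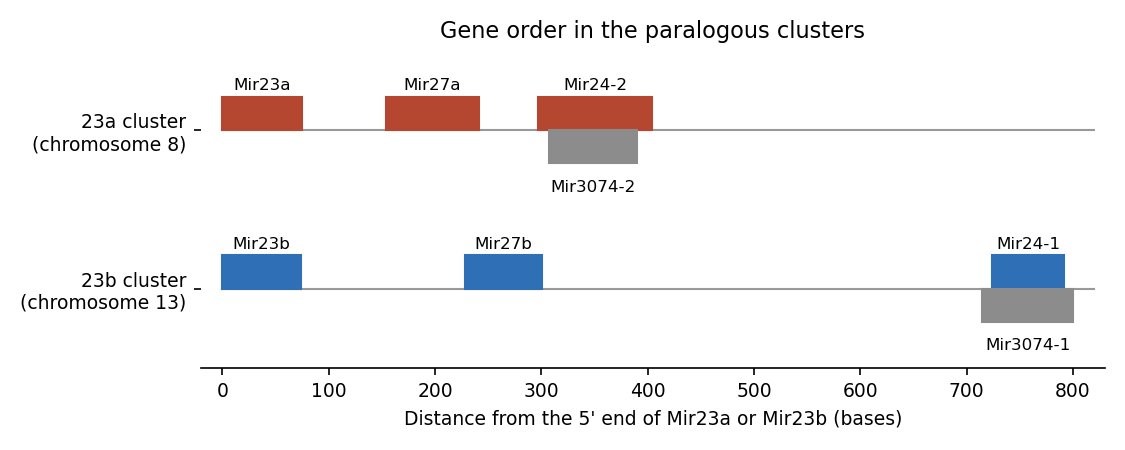
Gene map of the clusters by distance in bases from the 5′ end of Mir23a or Mir23b (x axis), with plus-strand genes above the line and the overlapping minus-strand miRNA genes in grey below it. The 23a cluster spans 404 bases and the 23b cluster 792.

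Levels are given as CPM, the reads on the strand of the gene scaled to a total of 1000000 such reads over all miRNA genes. These totals were 6783227 in replicate 1 and 3084602 in replicate 2. Multimapping reads made up 30.3% and 32.1% of all reads in the tables of replicates 1 and 2, and which genes they came from is not recorded. A count of 0 allows up to 3 reads, or 0.442 and 0.973 CPM, for a gene without near-identical copies. Intervals cover counting error only.

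The mir-23 genes were among the most abundant miRNA genes of the gland, and the other members fell away in steps. Mir23a had 262069 reads (38635 CPM) in replicate 1 and 181170 reads (58734 CPM) in replicate 2, ranks 7 and 5 of 2202. Mir23b had 222779 reads (32843 CPM) and 145714 reads (47239 CPM), ranks 8 and 7. Both genes were higher in replicate 2, and their ranges over the libraries overlap, while Mir23a was the higher within each library.

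The mir-27 genes stood well below the mir-23 genes. Mir27b had 20771 reads (3062 CPM) in replicate 1 and 8359 reads (2709.9 CPM) in replicate 2, rank 42 in each. Mir27a had 4056 reads (598 CPM) and 2258 reads (732 CPM), ranks 88 and 83. Every value of Mir27b lay above every value of Mir27a.

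The mir-24 genes were lowest by assigned reads. Mir24-2 had 1122 reads (165 CPM, Wilson 95% interval 156 to 175) in replicate 1 and 744 reads (241 CPM, 224 to 259) in replicate 2. Mir24-1 had 312 reads (46.0 CPM, 41.2 to 51.4) and 112 reads (36.3 CPM, 30.2 to 43.7). The ranges of Mir24-2 and Mir24-1 did not overlap, and since miR-24-3p is the same in both, none of these values is the level of miR-24.

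Over both libraries the means were 48684 ± 14212 CPM for Mir23a, 40041 ± 10180 for Mir23b, 2886 ± 249 for Mir27b, 665 ± 94.8 for Mir27a, 203 ± 53.6 for Mir24-2 and 41.2 ± 6.85 for Mir24-1 (SD, n = 2). A pair of genes was called ordered when both libraries ranked it alike and both gaps exceeded the difference between the libraries of either gene. By this rule 14 of the 15 pairs were ordered by assigned reads. The exception was Mir23a and Mir23b, whose gaps of 5792 and 11495 CPM were smaller than the 20099 CPM by which Mir23a differed between libraries. Within each library Mir23a was still the higher, with 54.1% (Wilson 95% interval 53.9 to 54.2) and 55.4% (55.3 to 55.6) of the pair's reads. Both genes rose in replicate 2, and the rule counts that shared shift as spread. The rule orders reads and not molecules, since ligation and amplification favour some sequences in every library. The counts of Mir24-2 and Mir24-1 also leave out reads lying wholly within the mature arm they share. Pairs that include either gene are therefore ordered by the reads left to it, and their order at the level of mature miRNA was not tested.

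**Figure D3:**
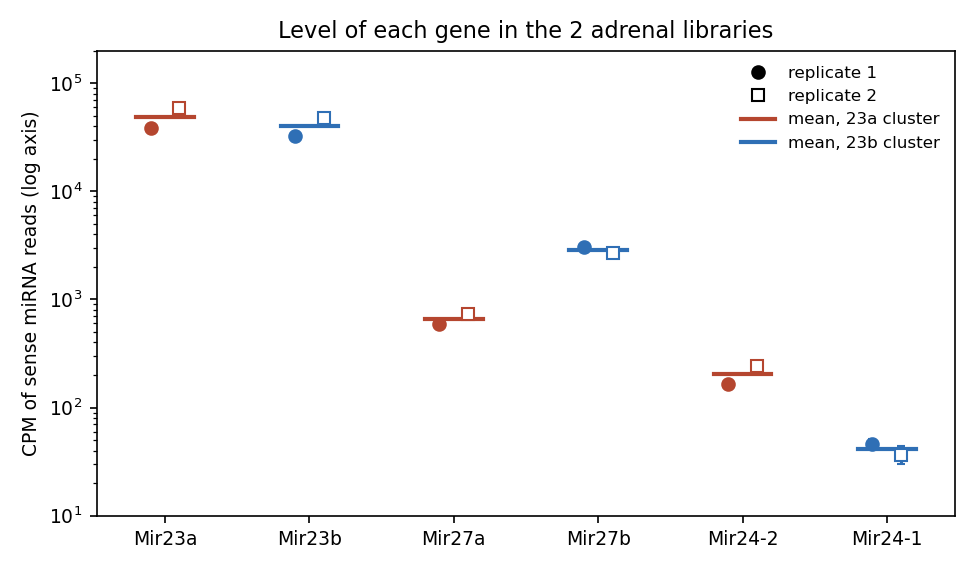
CPM of each gene (log axis) in replicate 1 (filled circles) and replicate 2 (open squares), with the mean as a bar and Wilson 95% intervals as whiskers where they exceed the symbol. The mir-23 genes sit between 32843 and 58734 CPM and Mir24-1 near 41.2 CPM, with the 23a cluster in red and the 23b cluster in blue.

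Together the clusters held a sizeable part of the assigned miRNA reads. The 23a cluster held 3.94% of them in replicate 1 (Wilson 95% interval 3.93 to 3.95) and 5.97% in replicate 2 (5.94 to 5.997), a mean of 4.96% ± 1.44 (SD, n = 2). The 23b cluster held 3.60% (3.58 to 3.61) and 5.00% (4.97 to 5.02), a mean of 4.30% ± 0.992. Summed reads of the 23a cluster were 1.10 and 1.19 times those of the 23b cluster, and within each library the intervals of the shares did not overlap. The difference in mean share is smaller than either SD. Both shares rose in replicate 2, so these SDs take in a shift common to the clusters. Mir23a made up 98.1% and 98.4% of the reads of its cluster, and Mir23b 91.4% and 94.5% of its own. The cluster totals are therefore almost the levels of the mir-23 genes.

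A ratio of 2 genes within a library needs no scaling between libraries, and cluster mates are set side by side in this way. Mir23a exceeded Mir27a 64.6-fold (exact 95% interval 62.6 to 66.7) in replicate 1 and 80.2-fold (77.0 to 83.7) in replicate 2. Mir23b exceeded Mir27b only 10.7-fold (10.6 to 10.9) and 17.4-fold (17.1 to 17.8). The ratios of the clusters did not overlap, and in each cluster the ratio was higher in replicate 2 by more than the counting intervals.

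The step from mir-23 to mir-24 was larger in both clusters, by assigned reads. Mir23a exceeded Mir24-2 by 234-fold (220 to 248) and 244-fold (227 to 262), the least changed of the 6 ratios given here on a log scale. Mir23b exceeded Mir24-1 by 714-fold (639 to 800) and 1301-fold (1081 to 1580). Both are upper limits of the ratio to the extent that miR-24-3p reads went uncounted. Mir27a exceeded Mir24-2 by 3.61-fold and 3.03-fold, while Mir27b exceeded Mir24-1 by 66.6-fold and 74.6-fold.

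Unequal levels within a cluster were common in these libraries. Over the 14 clusters with at least 3 genes of 10 CPM or more, taking genes of 1 strand no more than 10 kb apart, the highest gene exceeded the lowest by a median of 38.9-fold, with a range of 1.32 to 2070. The 23b cluster, at 1008-fold, was the fourth in this order and the 23a cluster, at 239-fold, the fifth. Each of the 3 clusters above them lies in the Dlk1-Dio3 region or around Mir322. In order they had 12, 6 and 33 genes of 10 CPM or more, against 3 in each member cluster. Such a ratio can widen with more genes. Among clusters with 3 genes of this level, the 23b and 23a clusters stood highest, and the next, that of Mirlet7d, was at 129-fold. The order is a description, since the lowest gene of the 23a cluster and that of the 23b cluster share miR-24-3p.

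The balance between paralogs changed with the position in the cluster. Mir23a held 54.1% (Wilson 95% interval 53.9 to 54.2) of the reads of the mir-23 pair in replicate 1 and 55.4% (55.3 to 55.6) in replicate 2, a mean of 54.7% ± 0.970 (SD, n = 2). Mir27a held 16.3% (15.9 to 16.8) and 21.3% (20.5 to 22.1) of the mir-27 pair, a mean of 18.8% ± 3.49. Mir24-2 held 78.2% (76.0 to 80.3) and 86.9% (84.5 to 89.0) of the mir-24 pair, a mean of 82.6% ± 6.13. By assigned reads the 23a cluster thus held slightly over an even part of the first pair and a minor part of the second. It held the major part of the third. Reads lying wholly within miR-24-3p are left out there, so that split is not one of miR-24. No range over the libraries overlapped another.

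Put as ratios, Mir23a exceeded Mir23b 1.18-fold and 1.24-fold, Mir27b exceeded Mir27a 5.12-fold and 3.70-fold, and Mir24-2 exceeded Mir24-1 3.60-fold and 6.64-fold. In all 3 pairs the part of the 23a cluster was larger in replicate 2, by 1.37, 4.93 and 8.67 percentage points. The mir-23 and mir-27 hairpins share equally many windows at every length searched, up to 20 bases. How many reads each pair lost to shared sequence is not recorded, and the part of uncounted shared reads in the splits was not tested.

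**Figure D4:**
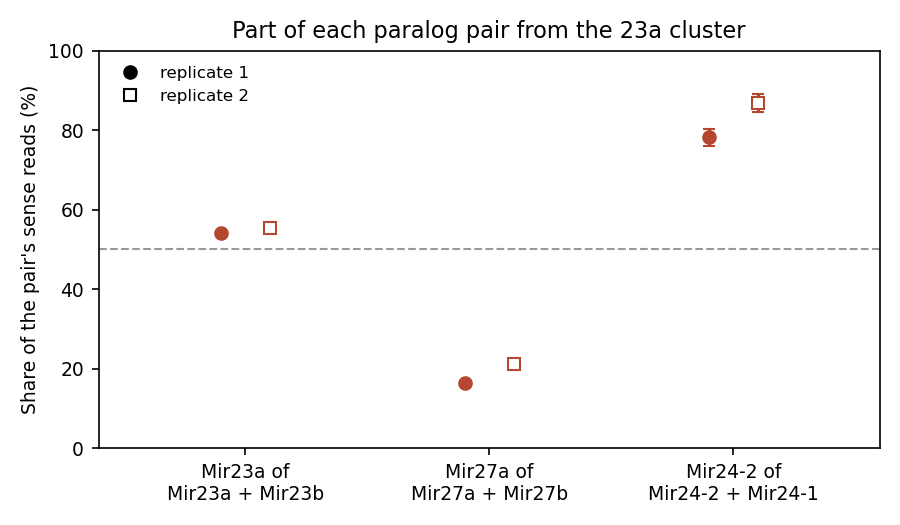
Share of each paralog pair's sense reads that came from the 23a cluster (y axis, percent), in replicate 1 (filled circles) and replicate 2 (open squares) with Wilson 95% intervals. The dashed line marks an even split, and the shares are near 54.7% for the mir-23 pair, 18.8% for the mir-27 pair and 82.6% for the mir-24 pair.

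Set beside other pairs of genes that share sequence, the mir-23 pair was among the more even. There were 39 pairs of genes of at least 10 CPM that share 18 bases or more and do not overlap, with a median absolute log2 ratio of 1.81 and a range of 0.0024 to 6.20. On this log2 scale the mir-23 pair stood at 0.27, the fourth from the most even, the mir-27 pair at 2.12 and the mir-24 pair at 2.29. Its ratio also moved little between the libraries, by 0.08 in log2, against a median of 0.34 over the 39 pairs, 0.47 for the mir-27 pair and 0.89 for the mir-24 pair. The pairs are not independent, because genes such as Mirlet7a-1 enter several of them. Several of the paired genes, such as Mir16-1 and Mir16-2, have an arm that is identical in another gene. Their ratios leave out reads lying wholly within that arm.

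The low counts of the mir-24 genes can be set beside other genes in the same position. Of the genes matched in RefSeq, 57 had 1 arm that is identical in another gene and 1 arm that is not. Their median level was 17.8 CPM, 34 of the 57 had at least 10 CPM, and 2, Mirlet7f-2 and Mir16-1, reached 1000 CPM. Mir24-2 was the eleventh and Mir24-1 the twentieth of these 57 by mean CPM, so both lay above the median of their class. The 583 genes with 2 arms and neither shared had a lower median, 0.722 CPM, with 189 at 10 CPM or more and 51 at 1000 CPM or more. Reads were seen for 438 of the 583 and 47 of the 57, so both medians take in genes without reads. At 1000 CPM or more the order was the other way, with 8.75% of the 583 and 3.51% of the 57.

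The strand columns bear on the mir-24 genes only. Mir23a, Mir23b and Mir27b had 0 opposite-strand reads in both libraries, and Mir27a had 1 in replicate 1 and 0 in replicate 2. In the column that ignores strand, Mir24-2 and Mir24-1 had 0 reads in both libraries, because reads where genes of both strands overlap are set aside there as ambiguous. On the minus strand Mir3074-2 had 1 and 0 reads, and Mir3074-1 had 51 and 19 reads (7.52 and 6.16 CPM).

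The replicates differed moderately at these genes. The log2 difference of CPM + 1, replicate 2 minus replicate 1, was 0.60 for Mir23a, 0.52 for Mir23b, 0.54 for Mir24-2 and 0.29 for Mir27a. It was −0.18 for Mir27b and −0.33 for Mir24-1. All 3 genes of the 23a cluster were thus higher in replicate 2, while the 23b cluster was mixed. A call of a difference needed an adjusted p under 0.05 with a log2 difference of 1 or more in either direction, in two-sided Fisher's exact tests on reads with Benjamini-Hochberg adjustment over the 280 genes of at least 10 CPM. Of the members, 0 of 6 were called, against 10.7% of the 280 genes. All 6 had an adjusted p under 0.05 whatever the size, as did 69.3% of the 280, and the highest of the 6 was 0.046, for Mir24-1. The test compares the reads of these libraries and says nothing of animals or conditions.

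The median difference was 0.41 over the 6 members and 0.012 over the 280 genes, of which 142 were higher in replicate 2. An absolute difference larger than that of Mir23a was seen in 23.9% of the 280 genes, and one larger than that of Mir27b in 66.1%. The endothelial genes listed beside the members were mixed, and their summed share was lower in replicate 2. Mir126a, the miRNA of the endothelial gene Egfl7, had 92610 CPM in replicate 1 and 52519 CPM in replicate 2. The summed share of Mir126a, Mir221, Mir222, Mir92-1 and Mir100 was 9.73% and 5.67%, with 2 of the 5 higher in replicate 2, 3 lower and 0 called. Mir126a made up most of this summed share in both libraries, and the 2 higher genes were Mir222 and Mir92-1. An arm of Mir92-1 is identical in another gene, so its count leaves out reads lying wholly within that arm. The mir-23 genes were higher in the library in which the summed share was lower. The part of cell makeup in the differences was not tested. In bulk tissue, more cells of a type and more RNA per cell cannot be told apart.

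**Figure D5:**
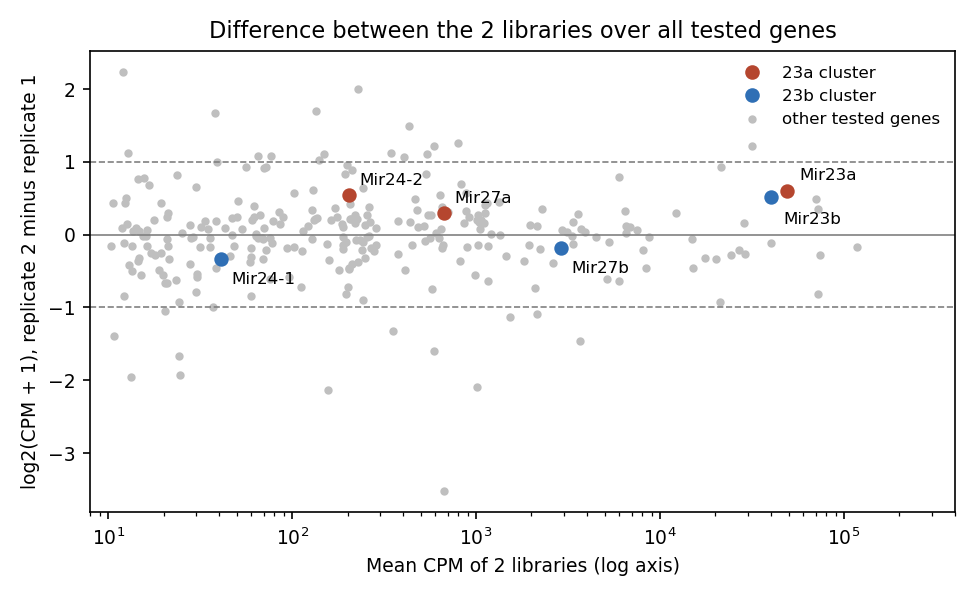
Difference of log2(CPM + 1), replicate 2 minus replicate 1 (y axis), against mean CPM on a log axis (x axis) for the 280 tested genes, with the 23a cluster in red and the 23b cluster in blue. The members lie between −0.33 and 0.60, inside the dashed lines at an absolute difference of 1.

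With 2 libraries, likeness to other genes could be judged only by level and replicate difference, as the distance in log2(CPM + 1) over both libraries, to genes of at least 10 CPM other than the 6 members. The gene nearest to Mir27a was Mir671 (655.9 ± 122 CPM, distance 0.072), and that nearest to Mir24-2 was Mir296 (207 ± 42.1 CPM, distance 0.10). Mir433 (2933 ± 102 CPM, distance 0.18) was nearest to Mir27b and Mir129-1 (38.3 ± 8.79 CPM, distance 0.18) to Mir24-1. Both Mir23a and Mir23b had Mirlet7i (40266 ± 2134 CPM) as nearest, at distances of 0.61 and 0.45. These were the largest such distances of the 6 members. The measure compares levels alone.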

How the data were processed

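The authors deposited, for each library, raw read counts per miRNA gene of GENCODE M21 on mm10, per the file headers and the text beside the tables, in 3 columns: both strands, the strand of the gene and the opposite strand. Aligner, version and trimming settings were not given in the sources used here. Their layout is that of STAR gene counts, and the strand columns were identified from it. Reads of another strain were compared with the mm10 reference, so a variant inside a mature arm could lower a count.

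All 2202 identifiers matched the annotation. Sense counts were scaled to CPM with the mapping lines left out. Shares carry Wilson and ratios exact 95% intervals, and a replicate SD has n = 2. Python 3.11.15 and SciPy 1.17.1 were used, with edgeR 4.0.16 and DESeq2 1.42.0 for other scalings. Fisher's exact test was tested on simulated data that held counting error only, which says nothing of spread between libraries beyond it. RefSeq mature arms of 1018 matched genes were used.

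The members, lists and tests were chosen with earlier results of these data known. Besides members, the text names their minus-strand partners, genes sharing a 3p seed, the nearest gene to each member and the endothelial list. Genes named as examples of the pair, cluster and arm comparisons were chosen after their values were seen. Alternatives were other scalings, the column for both strands, other filters and pseudocounts, and leaving out a replicate.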

Additional observations from a re-analysis of the deposited data

Results flagged for a closer look

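Reads on the strand opposite to Mir24-1, which are in no count of that gene, numbered 51 in replicate 1 and 19 in replicate 2. Both exceed the 3 reads that a count of 0 allows, and they equal the sense reads of Mir3074-1 given above. They came to 16.3% and 17.0% of the sense reads of Mir24-1. Over Mir24-2 the opposite strand had 1 and 0 reads.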

How the results depend on the processing

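Of 81 alternative values that keep both replicates, 68 kept their direction and call or stayed within the replicate SD or 1.5 times a count, and 0 reversed. Some of the 68 were nearly fixed beforehand. A filter on low values cannot move a gene's log2 difference. The column for both strands could hardly move a split or ratio of mir-23 and mir-27 genes, which had almost no opposite-strand reads. The count of 68 is therefore no measure of stability. Scaled to 1000000 of all reads in the tables, mean levels were 23894 for Mir23a, 328 for Mir27a, 99.9 for Mir24-2, 19672 for Mir23b, 1431 for Mir27b and 20.4 for Mir24-1, and the 23a and 23b clusters held 2.43% and 2.11%, by the larger total alone. In the column for both strands Mir24-2 and Mir24-1 were at 0 CPM and Mir27b at 3245 CPM, since that column leaves out reads of overlapping genes, and it gave no split or ratio for the mir-24 genes. Genes called between replicates numbered 50 with no filter (703 genes tested) and 19 at 100 CPM or more (173 tested), against 30 of 280. They split into 17 higher and 13 lower in replicate 2, but 12 and 17 under TMM and 8 and 17 under DESeq2 size factors. These scalings moved the median of the 280 genes by −0.10 and −0.14 in log2. They changed the log2 limit of a call only, since the test kept the unscaled read totals. The DESeq2 factors were estimated without the filter on low values and were 1.414 and 0.7071 in the sense and both-strand columns alike. The difference of Mir23a ranged from 0.47 to 0.60, of Mir27b from −0.31 to −0.18 and of Mir24-1 from −0.47 to −0.30, with 0 of the members tested called under each alternative. Leaving out a replicate (34 values) gives the value of the other, which with 2 replicates always lies within their SD of the mean and so says nothing of stability. It ran from 38635 to 58734 CPM for Mir23a and from 714 to 1301 for Mir23b over Mir24-1. Precision of Mir24-1 was limited by its 312 and 112 reads.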

Other observations

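Markers of other cell types were read beside the clusters, and the list held none for cells of the adrenal cortex. Mir375 and Mir7b, known from neuroendocrine cells such as those of the medulla, together held 6.33% of miRNA reads in replicate 1 and 8.69% in replicate 2. Mir375 had 58717 CPM in replicate 1 and 82443 CPM in replicate 2, while Mir7b had 4535 and 4423 CPM, so 1 gene was higher and 1 lower in replicate 2 and 0 were called. Mir143 and Mir145a, of smooth muscle and pericytes, held 2.95% and 2.56%. The leukocyte genes Mir142, Mir150, Mir155 and Mir223 held 0.0610% and 0.0693%, with 3 of 4 higher in replicate 2 and 0 called. Mir451a and Mir144 of red cells held 0.554% and 0.214%, and the liver marker Mir122 held 0.0257% and 0.00577%. Mir451a had 5351 CPM in replicate 1 and 1949 CPM in replicate 2, while Mir144 was nearly level at 191 and 187 CPM. Mir451a and Mir122 were called lower in replicate 2 and Mir144 was not called, where 10.7% of the 280 tested genes were called in either direction. The part of these cell types in the levels of the clusters was not tested.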
